A study of Arabidopsis thaliana with 18 samples.

Results

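The response of bon123 mutant seedlings of Arabidopsis thaliana to abscisic acid (ABA) was read from 6 of the 18 RNA sequencing libraries of the study. The libraries were chosen by their labels: 3 came from bon123 seedlings given ABA and 3 from bon123 seedlings given the mock treatment. Here bon123 stands for the libraries whose genotype label is bon123t, a Col-0 line mutated in the BONZAI genes BON1, BON2 and BON3. These genes code for copines, proteins that bind membrane phospholipids when calcium is present. The mutant alleles and the letter t are not explained in the sources used here. The labels call the material of every library seedlings, 9 days old, grown on vertical plates and treated on 1/2 MS medium, and do not say which organs were harvested. ABA was given at 100 µM. The sample labels state 12 h of treatment and the series text states 24 h, so the length of exposure is uncertain. Wild type (WT) seedlings of Col-0 given ABA or the mock treatment, with 3 libraries each, were used for the comparison of responses. The other 6 libraries, bon123 and WT seedlings given 300 mM mannitol, entered the shared estimate of the spread and the check of tissue markers.

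ABA is the hormone that plants make when water runs short. It is bound by receptors of the PYR/PYL family, and the bound receptors block the clade A protein phosphatases of type 2C (PP2C). With the phosphatases blocked, SnRK2 kinases become active and phosphorylate transcription factors of the ABF/ABI5 group. These factors bind promoter elements built around the letters ACGTG and switch on genes for dehydration proteins, osmolytes and barrier lipids. The PP2C genes are themselves switched on by ABA, which closes a negative feedback loop. Copines of the BONZAI family are best known as restraints on immune receptors: loss of BON1 releases the receptor SNC1, and BAP1 and BAP2 are small membrane-bound proteins that work with BON1.

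Levels are given in TPM, transcript abundance corrected for transcript length on a scale with the same sum in every library, so the read depth is unknown. Between 16582 and 17169 genes reached 1 TPM in the bon123 ABA libraries, and between 18991 and 19183 in the bon123 mock libraries. Nothing in the labels says that replicates were grown as separate cultures, and the tests therefore rest on the spread among these particular libraries, which may be technical. One ABA library stood apart. In bon123 ABA replicate 3 the 20 most abundant genes held 17.8% of all TPM, against 12.0% in ABA replicate 2, and its median log2 difference from the mean of the mock libraries was -0.70, against -0.40 and -0.45 in ABA replicates 1 and 2. The difference in replicate 3 was -0.34 over the shortest of 4 equal gene-length classes and -1.03 over the longest. Where this library decided the call of a gene named below, or moved a list count by more than 1.5 times, the result without it is given.

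The tissue markers did not match between the genotypes, although all labels call the material seedlings. The summed level of 8 green shoot markers was 267, 273 and 289 TPM in bon123 ABA libraries and 1510, 1304 and 1167 TPM in bon123 mock libraries. In WT the same sum was 24440, 25870 and 28640 TPM with ABA and 31990, 32640 and 34720 TPM with mock. All 8 markers were lower in every bon123 library than in every WT library of the same treatment. The share of all genes with no overlap between the genotypes was not counted. The ratio of the means of bon123 to WT was 0.0105 with ABA and 0.0401 with mock. Mannitol libraries showed the same gap, at 947 to 1036 TPM in bon123 and 17930 to 22630 TPM in WT. RBCS1A, a gene of the small subunit of Rubisco, stood at 428, 350 and 285 TPM in bon123 mock libraries and at 13090 to 14220 TPM in WT mock libraries. The sum of 13 root markers was 2005, 1719 and 1473 TPM in bon123 ABA libraries and 16560, 15890 and 15210 TPM in bon123 mock libraries, against 1561, 2024 and 1242 TPM in WT ABA libraries and 1949, 2697 and 2524 TPM in WT mock libraries. Nearly all of it was PYK10 (BGLU23), a beta-glucosidase of endoplasmic reticulum bodies in roots, at 1945, 1663 and 1422 TPM in bon123 ABA libraries and 15040 to 16410 TPM in bon123 mock libraries. The 8 markers of stomatal lineage and guard cells summed to 6.20, 11.7 and 7.08 TPM in bon123 ABA libraries and 13.7, 16.1 and 15.5 TPM in bon123 mock libraries, against 50.9 to 62.7 TPM in WT ABA libraries and 71.8 to 77.5 TPM in WT mock libraries. SPCH, which starts the stomatal lineage, was listed at 0 in all 3 bon123 ABA libraries. Fewer cells of a type and less RNA per cell cannot be told apart in RNA extracted from many cells together. From these data a difference in the organs harvested and a difference between the genotypes cannot be told apart, which bears on every comparison of bon123 with WT below. The part of these marker differences in the results was not tested.

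**Figure D1:**
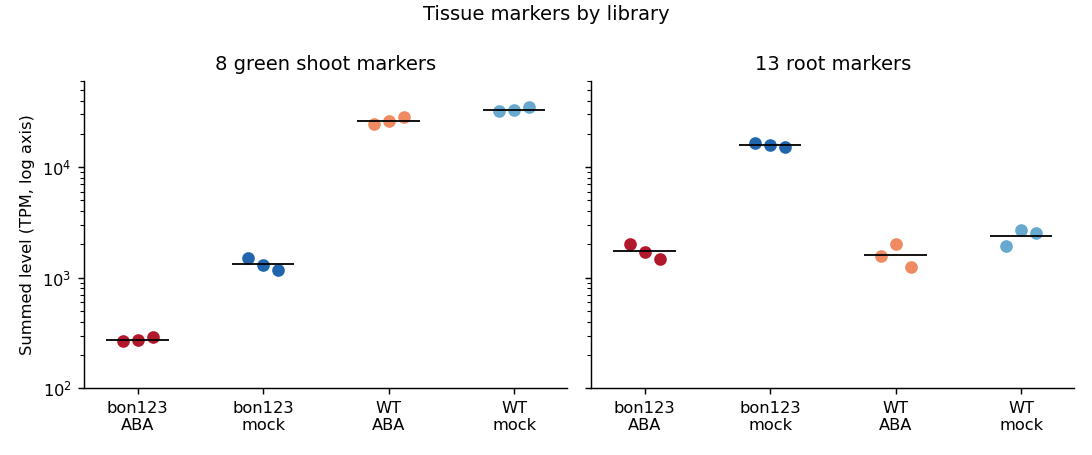
Summed TPM (log axis) of 8 green shoot markers (left) and 13 root markers (right) in each library of bon123 ABA, bon123 mock, WT ABA and WT mock. Points are libraries and lines are means of 3. The green shoot sum lies between 267 and 1510 TPM in bon123 and between 24440 and 34720 TPM in WT, and the root sum of bon123 mock libraries lies above that of all other libraries drawn.

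ABA changed the majority of tested genes in bon123, and more of them were lower than higher. Of 21727 genes, 3288 (15.1%) rose and 12053 (55.5%) fell at an adjusted p under 0.05, by limma with Benjamini-Hochberg adjustment over all tested genes. At least 2-fold rises numbered 1627 (7.49%) and at least 2-fold falls 6370 (29.3%). Over all tested genes the median log2 fold change lay at -0.51. Because that median lay below 0, the comparison was repeated after median-of-ratios scaling, which sets the typical gene equal between libraries. The scaling moved the median by 0.48 to -0.03, and 7176 genes (33%) were then higher and 7548 (34.7%) lower. All 3288 genes called higher as deposited were also higher after scaling, and all 7548 genes called lower after scaling were also lower as deposited. In contrast, 3950 genes lost their call as lower and 555 changed from lower to higher. All 3 ABA libraries lay above all 3 mock libraries for 15.3% of genes and below them for 57%. These shares are the background for any statement below that ABA and mock libraries of bon123 did not overlap. No such share was counted for bon123 against WT. Changes of at least 2-fold in both scalings were found for 1627 higher and 3359 lower genes. Without bon123 ABA replicate 3, 3804 genes were higher and 11415 lower as deposited. Each gene list below is given under both scalings, and its median is that of the log2 fold changes as deposited. A share of falls near 55.5% or of rises near 15.1% is the share of all genes.

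**Figure D2:**
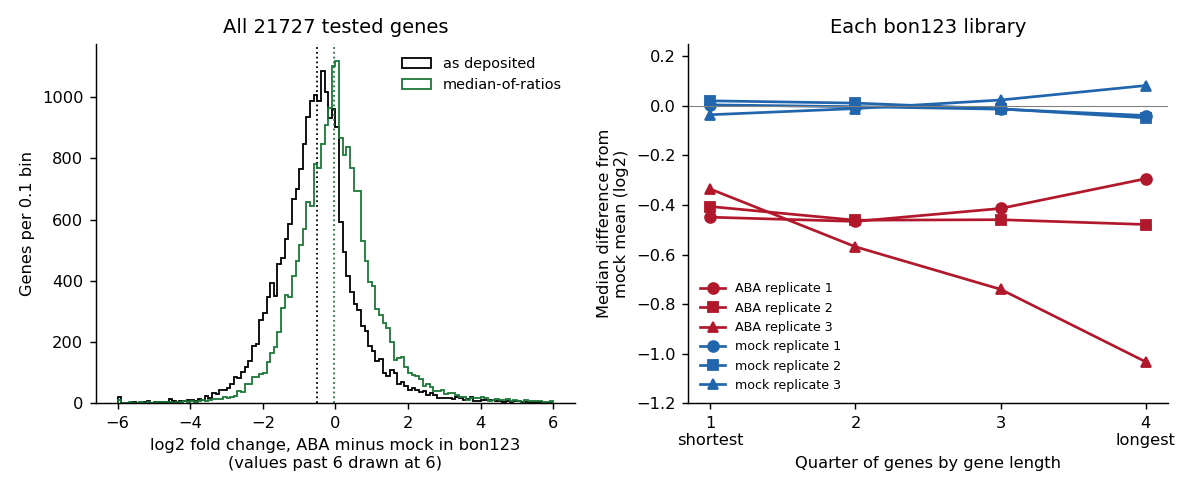
Left, number of genes per 0.1 bin of log2 fold change (ABA minus mock in bon123) over 21727 genes, as deposited and after median-of-ratios scaling, with dotted lines at the medians of -0.51 and -0.03. Right, median log2 difference of each bon123 library from the mock mean in 4 equal classes of gene length, in which ABA replicate 3 lies at -0.34 for the shortest genes and at -1.03 for the longest while ABA replicates 1 and 2 stay between -0.29 and -0.48.

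The mutated genes were examined first. BON1 was at 0.63, 0.85 and 1.62 TPM in bon123 ABA libraries and at 0.87, 1.66 and 1.29 TPM in bon123 mock libraries, against 10.13 to 18.3 TPM in the WT ABA and mock libraries. It stayed low in the mutant with both treatments, and its log2 fold change of -0.18 ± 0.18 (SE, n = 3 per group, here and throughout) with ABA was not called. Each SE comes from the spread shared over all 18 libraries in 6 groups. It is therefore not the scatter of the bon123 values printed beside it alone. BON2 was at 8.54, 7.17 and 2.85 TPM in bon123 ABA libraries and at 14.6, 13.9 and 16.2 TPM in bon123 mock libraries, against 21.3 to 36.3 TPM in WT. BON2 fell with ABA (-1.24 ± 0.23, adjusted p = 0.00018), also after scaling, and ABA replicate 3 was the lowest library. BON3 stayed below the filter on low values, at 0.32 to 0.61 TPM in bon123 ABA libraries, 0.62 to 0.75 TPM in bon123 mock libraries and 0.08 to 0.17 TPM in WT, so a loss of its transcript was not visible here. Among the partners, BAP2 rose by 0.88 ± 0.29, a call that was lost without ABA replicate 3 (0.69, adjusted p = 0.0588), and BAP1 was not called. BIR1, a receptor-like kinase that restrains cell death, and SNC1 were called lower as deposited (-0.91 ± 0.18 and -0.98 ± 0.21) and were not called after scaling (-0.25 and -0.32).

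The receptor side and the phosphatase side of the ABA pathway moved in opposite directions in bon123. Of 14 receptor genes 10 passed the filter, of which 1 rose and 7 fell as deposited and 2 rose and 6 fell after scaling, with a median log2 fold change of -1.70 against -0.51 for all genes. PYL6 was at 0.12, 0.14 and 0.39 TPM in bon123 ABA libraries and at 78.7, 83.3 and 73.5 TPM in bon123 mock libraries. PYL4 was at 4.55, 4.83 and 7.71 TPM in bon123 ABA libraries and at 228, 244 and 235 TPM in bon123 mock libraries. Both receptors were lower in every ABA library than in any mock library, with log2 fold changes of -6.04 ± 0.12 and -5.17 ± 0.15 (adjusted p = 6.8e-15 and 3.6e-13). PYL5 fell by 2.93 on the log2 scale, and PYL1, PYL8 and PYR1 also fell. All 4 falls held after scaling. PYL3 went the other way, with 7.83, 6.76 and 5.46 TPM in bon123 ABA libraries and 0.52, 0.93 and 0.64 TPM in bon123 mock libraries (2.17 ± 0.30, adjusted p = 8.9e-06). PYL7 was not called as deposited (0.01 ± 0.14) and was called higher after scaling (0.67).

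All 9 clade A PP2C genes rose in bon123 under both scalings, with a median log2 fold change of 4.31. HAI3, a phosphatase gene of the ABA-induced HAI branch, was at 638, 565 and 496 TPM in bon123 ABA libraries and at 0.53, 0.09 and 0.83 TPM in bon123 mock libraries. HAI2 of the same branch was at 232, 208 and 147 TPM in bon123 ABA libraries and at 0.88, 0.73 and 0.84 TPM in bon123 mock libraries. Both were below 1 TPM in every mock library, and their log2 fold changes were 8.60 ± 0.20 and 6.73 ± 0.20 (adjusted p = 2.5e-14 and 3.3e-13). HAI1 was at 684, 617 and 439 TPM in bon123 ABA libraries and at 13.9, 18.3 and 17.1 TPM in bon123 mock libraries, and ABI2 was at 252, 217 and 113 TPM in bon123 ABA libraries and at 5.72, 6.41 and 7.98 TPM in bon123 mock libraries. ABA replicate 3 was the lowest ABA library for all 4 genes and still lay far above the mock libraries. The smaller rises were those of PP2CA (4.31), AHG1 (3.51), ABI1 (2.37), HAB1 (2.25) and HAB2 (1.93), of which ABI1 already stood at 106 to 126 TPM in bon123 mock libraries.

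SnRK2 kinase genes had smaller fold changes, from -1.89 to 1.38. Of 10 genes, 4 rose and 3 fell as deposited, and 8 rose and 2 fell after scaling, with a median of 0.18 as deposited. OST1, the kinase of stomatal closure, was at 105, 91.7 and 65.3 TPM in bon123 ABA libraries and at 31.3, 30.7 and 34.8 TPM in bon123 mock libraries (1.38 ± 0.14, adjusted p = 3e-07). SNRK2.8 was at 69.8, 73.6 and 51.5 TPM in bon123 ABA libraries and at 217, 245 and 260 TPM in bon123 mock libraries (-1.89 ± 0.12, adjusted p = 1.1e-09). The groups did not overlap for either kinase. SNRK2.2 and SNRK2.3, which with OST1 form the main ABA-activated trio, changed by -0.30 and 0.03 as deposited and by 0.38 and 0.70 after scaling, so the direction for SNRK2.2 depended on the scaling.

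**Figure D3:**
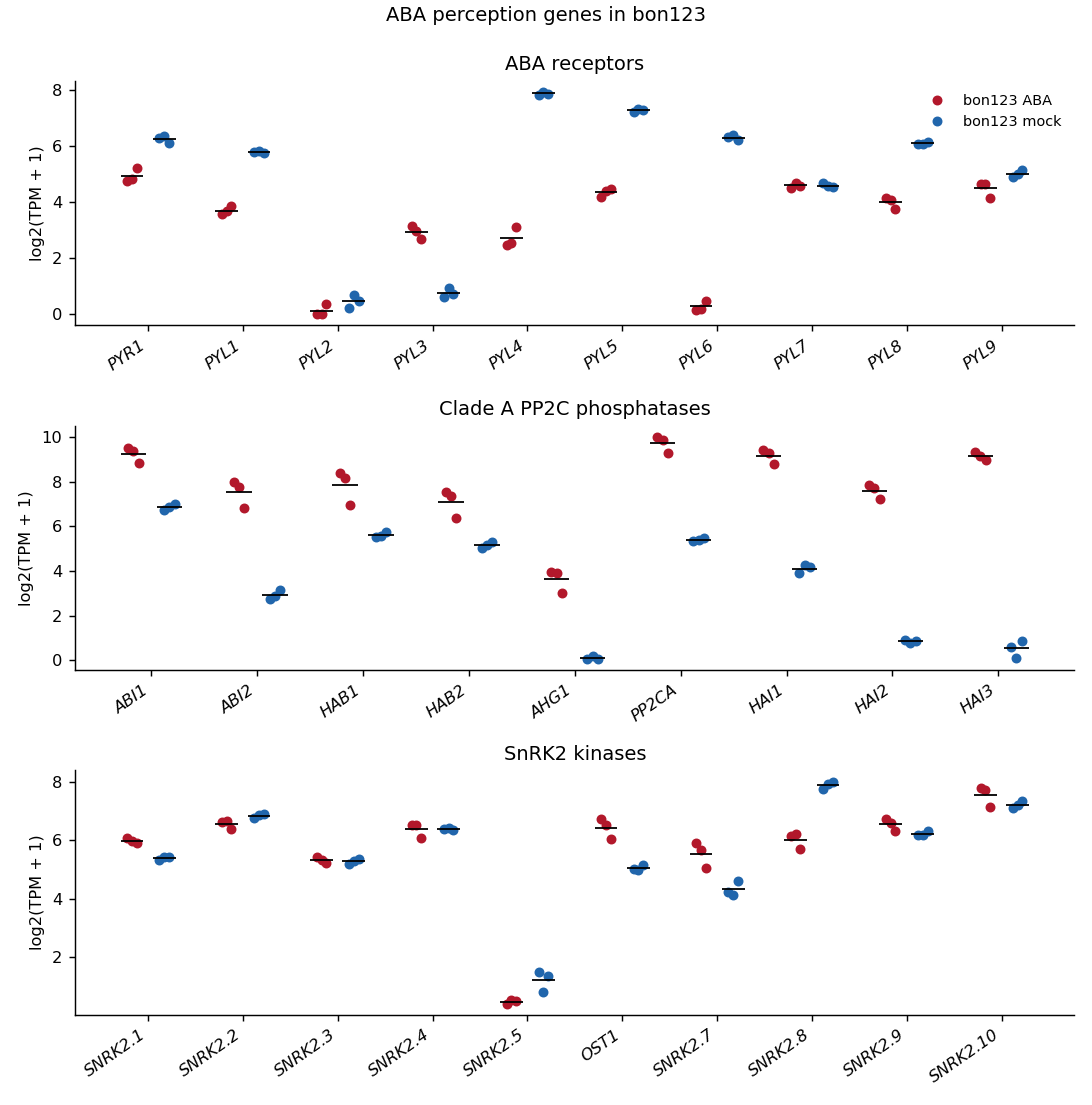
Levels of 10 ABA receptor, 9 clade A PP2C and 10 SnRK2 genes as log2(TPM + 1) in each bon123 ABA and bon123 mock library. Points are libraries and lines are means of 3. All 9 PP2C genes are higher in the ABA libraries, while PYL4 and PYL6 are far lower in the ABA libraries and the kinases differ least.

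Transcription regulators of ABA signalling rose together, at 17 of 19 tested genes as deposited and 19 of 19 after scaling, with 0 called lower and a median of 2.12. AFP1, which codes for a protein that binds and restrains ABI5, was at 268, 263 and 252 TPM in bon123 ABA libraries and at 5.01, 5.64 and 6.52 TPM in bon123 mock libraries (5.29 ± 0.18, adjusted p = 1.6e-12). HB7, a homeodomain factor of the drought response, was at 2361, 2218 and 1637 TPM in bon123 ABA libraries and at 147, 168 and 157 TPM in bon123 mock libraries (3.70 ± 0.15, adjusted p = 1.1e-11). The rises also held for AFP3 (3.89), MYB2 (3.76), NAC019 (3.64), HB12 (3.01), ABF2 (2.56), RD26 (2.38) and ABI5 (2.30). ABI5, a main ABA factor of seeds and seedlings, reached only 11.2, 11.4 and 5.74 TPM in bon123 ABA libraries and was at 0.81, 1.11 and 1.21 TPM in bon123 mock libraries. ABF1 and ABF4 were not called as deposited (0.37 and -0.08) and were called higher after scaling (ABF1 also without ABA replicate 3), and ABI4 was listed at 0 in all 6 bon123 libraries.

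Genes that make and remove ABA both responded. Of 7 tested synthesis genes, 4 rose and 1 fell as deposited and 7 rose after scaling. NCED2, one of the dioxygenases of the rate-limiting step, was at 50.3, 45.4 and 25.1 TPM in bon123 ABA libraries and at 1.58, 1.90 and 1.99 TPM in bon123 mock libraries (3.81 ± 0.20, adjusted p = 1e-10). NCED3, the drought-induced dioxygenase, was at 37.4, 33.5 and 22.8 TPM in bon123 ABA libraries and at 3.59, 3.21 and 4.55 TPM in bon123 mock libraries (2.73 ± 0.22). The 3 ABA libraries lay above the mock libraries for both. Of 11 genes of breakdown, conjugation and transport, 5 rose and 3 fell as deposited, and 7 rose and 2 fell after scaling. The 8'-hydroxylase genes that inactivate ABA split: CYP707A1 (2.53), CYP707A2 (3.13) and CYP707A3 (1.95) rose, and CYP707A4 fell to 20.6, 16.2 and 16.0 TPM in bon123 ABA libraries, against 64.1, 61.1 and 63.4 TPM in bon123 mock libraries (-1.79 ± 0.16). The ABA exporter genes ABCG25 and DTX50 rose by 1.45 and 1.49.

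The largest changes were ranked among 4400 genes, those with a symbol, a mean log2(TPM + 1) of at least 2, the same call in both scalings and no overlap between ABA and mock libraries. Of the 10 largest rises among them, 5 were of genes for late embryogenesis abundant (LEA) proteins, the dehydrins included, which protect cells that dry out, as seeds do. LEA7 was at 5343, 4752 and 4827 TPM in bon123 ABA libraries and at 6.17, 6.39 and 6.82 TPM in bon123 mock libraries (9.38 ± 0.60, adjusted p = 1e-09). The dehydrin gene RAB18 was at 3260, 3286 and 3663 TPM in bon123 ABA libraries and at 5.24, 4.47 and 5.23 TPM in bon123 mock libraries (9.15 ± 0.22, adjusted p = 4.2e-14). RD29B (LTI65), a classical reporter gene of ABA, was at 1908, 1734 and 1021 TPM in bon123 ABA libraries and at 2.40, 2.35 and 3.55 TPM in bon123 mock libraries (8.65 ± 0.62, adjusted p = 3.8e-09). The ratio of mean TPM was 770 for LEA7, 683 for RAB18 and 562 for RD29B. EM6 (GEA6), a LEA gene of the maturing embryo, was at 3616, 4047 and 4860 TPM in bon123 ABA libraries and at 10.7, 10.9 and 11.2 TPM in bon123 mock libraries (8.44 ± 0.19). LEA29, LEA4-5 and the cold and ABA gene KIN1 followed at 8.21, 7.96 and 7.87, and KIN1 lies beside the near-identical KIN2, so reads may be split between them. SWEET13, a sugar exporter gene, was at 170, 134 and 147 TPM in bon123 ABA libraries and at 0.07, 0.04 and 0.15 TPM in bon123 mock libraries (7.12 ± 0.21). UGT89B1, a flavonol glucosyltransferase gene, was at 318, 273 and 204 TPM in bon123 ABA libraries and listed at 0 in all 3 bon123 mock libraries, so no fold is given.

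The dehydration lists moved almost as a block. Of 7 dehydrins 6 rose and 1 fell, of 10 tested other LEA genes 10 rose, and of 13 RD, COR, KIN and lipid transfer genes 12 rose and 0 fell, with the same counts after scaling and medians of 3.38, 5.56 and 3.70. The exception among dehydrins was HIRD11, at 501, 529 and 640 TPM in bon123 ABA libraries and 1339, 1340 and 1296 TPM in bon123 mock libraries (-1.26 ± 0.19). Other dehydrins were already abundant in the mock state. ERD14 was at 2559, 2754 and 2563 TPM in bon123 ABA libraries and at 1240, 1207 and 1376 TPM in bon123 mock libraries (1.04 ± 0.11), and COR47 was at 2872 to 3085 TPM in bon123 ABA libraries and at 307 to 394 TPM in bon123 mock libraries (3.16 ± 0.16). RD29A was at 89.1, 70.7 and 45.2 TPM in bon123 ABA libraries and at 1.65, 0.86 and 1.21 TPM in bon123 mock libraries (4.92 ± 0.24), a far lower level than that of its neighbour RD29B. COR15B was the uncalled member and was listed at or below 0.10 TPM in all 6 libraries. RCI2B, called at 0.64 ± 0.26, lost its call without ABA replicate 3.

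Promoters of 4 of the genes with the largest rises, of KCS2, a suberin gene that also rose, and of 2 genes with the largest falls were read from the RefSeq annotation of TAIR10.1 to set the strongest responders beside the ABA element that the background names, as the 250 bases before the annotated gene start. They were chosen after their values were seen. Capitals mark the ABA element core ACGTG or its reverse complement CACGT, searched on both strands, and CACGTG, the G-box, which holds both and is counted as 1 place.
RAB18 promoter, chr5:26519448-26519697 (minus strand): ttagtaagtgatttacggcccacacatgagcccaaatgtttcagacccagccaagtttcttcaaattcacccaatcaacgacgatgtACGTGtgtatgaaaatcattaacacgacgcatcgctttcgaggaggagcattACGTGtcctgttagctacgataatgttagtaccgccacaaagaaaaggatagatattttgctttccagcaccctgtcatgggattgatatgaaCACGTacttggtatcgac
RD29B promoter, chr5:21236771-21237020 (plus strand): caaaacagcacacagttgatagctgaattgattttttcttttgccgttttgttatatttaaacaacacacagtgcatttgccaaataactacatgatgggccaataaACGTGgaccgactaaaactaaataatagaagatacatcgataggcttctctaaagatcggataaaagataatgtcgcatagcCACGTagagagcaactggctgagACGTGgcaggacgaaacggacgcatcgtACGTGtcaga
EM6 promoter, chr2:16780369-16780618 (minus strand): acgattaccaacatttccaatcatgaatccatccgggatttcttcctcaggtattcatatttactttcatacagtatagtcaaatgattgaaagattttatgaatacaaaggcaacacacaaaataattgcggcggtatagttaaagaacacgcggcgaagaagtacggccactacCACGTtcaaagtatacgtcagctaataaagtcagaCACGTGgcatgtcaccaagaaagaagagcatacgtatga
HAI3 promoter, chr2:12608425-12608674 (plus strand): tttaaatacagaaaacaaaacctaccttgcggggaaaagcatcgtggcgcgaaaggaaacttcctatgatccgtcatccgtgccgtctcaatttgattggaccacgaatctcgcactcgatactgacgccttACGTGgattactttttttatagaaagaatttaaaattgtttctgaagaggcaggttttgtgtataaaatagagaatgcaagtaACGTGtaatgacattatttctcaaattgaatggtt
KCS2 promoter, chr1:1122787-1123036 (minus strand): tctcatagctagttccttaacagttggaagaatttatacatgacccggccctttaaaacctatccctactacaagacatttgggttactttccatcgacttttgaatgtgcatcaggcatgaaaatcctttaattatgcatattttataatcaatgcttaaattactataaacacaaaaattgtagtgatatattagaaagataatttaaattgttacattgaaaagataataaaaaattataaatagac
EARLI1 promoter, chr4:7406995-7407244 (minus strand): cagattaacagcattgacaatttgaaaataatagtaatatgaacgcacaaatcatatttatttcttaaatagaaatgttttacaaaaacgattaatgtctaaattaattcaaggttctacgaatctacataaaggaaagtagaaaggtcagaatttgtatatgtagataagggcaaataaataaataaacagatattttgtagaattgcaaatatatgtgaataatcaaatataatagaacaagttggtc
PYL6 promoter, chr2:16846195-16846444 (minus strand): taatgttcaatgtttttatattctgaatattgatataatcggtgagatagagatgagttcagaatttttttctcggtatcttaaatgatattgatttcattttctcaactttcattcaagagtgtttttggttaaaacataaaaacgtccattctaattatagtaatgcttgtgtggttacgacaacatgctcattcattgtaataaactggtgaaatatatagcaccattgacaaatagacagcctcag
RAB18 held 3 such places, RD29B 4, EM6 2 (of which 1 is a G-box) and HAI3 2. KCS2, which rose, and EARLI1 and PYL6, which fell, held 0. Over all 21385 tested genes with a promoter of this length, 24% held at least 1 core. The share was 55.9% (165 of 295) among genes called higher by at least 8-fold in both scalings and 40% (639 of 1597) among those at least 2-fold higher. It was 20.7% (691 of 3333) among genes at least 2-fold lower and 22.5% (39 of 173) among genes at least 8-fold lower. At least 2 places were found in 30.8% of the promoters of genes at least 8-fold higher and in 5.6% of all promoters. A G-box was found in 31.9% of the promoters of genes at least 8-fold higher and in 7.29% of all promoters. These shares describe letters within a fixed window and were not tested.

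Genes of seed reserves answered only in part. Of 9 tested genes, 3 rose and 1 fell as deposited, and 5 rose and 1 fell after scaling. Without ABA replicate 3, 6 rose and 1 fell. PER1, a peroxiredoxin gene of embryos, was at 254, 313 and 240 TPM in bon123 ABA libraries and at 4.06, 10.8 and 2.23 TPM in bon123 mock libraries (5.54 ± 0.36, adjusted p = 1.2e-09). The oil body genes OLEO2 and OLEO1 rose by 4.47 ± 0.29 and 3.47 ± 0.41, and OLEO4 fell to 0.51, 2.04 and 0.59 TPM in bon123 ABA libraries, against 5.35, 4.34 and 3.33 TPM in bon123 mock libraries. The 12S globulin gene CRA1 scattered widely, at 39.2, 45.8 and 5.51 TPM in bon123 ABA libraries and 3.92, 33.0 and 0.66 TPM in bon123 mock libraries, and was not called with all libraries (1.82 ± 0.88), but was called higher without ABA replicate 3 and after scaling.

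Osmolyte genes were mixed. Of 14 tested genes of proline and raffinose metabolism, 7 rose and 2 fell as deposited, and 11 rose and 2 fell after scaling. GOLS2, a galactinol synthase gene of the drought response, was at 30.8, 25.9 and 13.2 TPM in bon123 ABA libraries and at 0.79, 0.54 and 0.50 TPM in bon123 mock libraries (3.84 ± 0.28). SUS1, a sucrose synthase gene, was at 225, 207 and 136 TPM in bon123 ABA libraries and at 20.8, 24.7 and 24.6 TPM in bon123 mock libraries (2.94 ± 0.16). In proline synthesis, P5CS1 of the stress branch rose by 1.62 ± 0.20, while P5CS2 (-1.10 ± 0.13) and P5CR, the enzyme of the next step (-1.79 ± 0.08), fell.

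Most genes of suberin, the lipid barrier of root endodermis and wounded tissue, rose in bon123. Of 16 genes, 10 rose and 3 fell as deposited and 13 rose and 1 fell after scaling, with a median of 1.72. MYB41, a transcription factor that switches on suberin genes, was at 171, 153 and 154 TPM in bon123 ABA libraries and at 1.80, 2.95 and 4.28 TPM in bon123 mock libraries (5.37 ± 0.26, adjusted p = 4.9e-11). KCS2, which elongates fatty acids for suberin, was at 821, 745 and 641 TPM in bon123 ABA libraries and at 21.2, 24.2 and 27.3 TPM in bon123 mock libraries (4.87 ± 0.15, adjusted p = 6.4e-13). GPAT5, which joins the fatty acids to glycerol, was at 853, 685 and 432 TPM in bon123 ABA libraries and at 22.7, 24.6 and 30.0 TPM in bon123 mock libraries (4.58 ± 0.30). Every ABA library lay above every mock library for these 3 genes. The transporter genes ABCG6 and ABCG2 rose by 4.57 ± 0.35 and 1.29 ± 0.54, the second only with ABA replicate 3, and the feruloyl transferase gene ASFT rose by 3.99 ± 0.28. MYB92 and MYB53, further MYB factors of suberin, were called lower (-1.54 and -0.66), and the fall of MYB53 was not called after scaling. Markers of the endodermis and other root cells did not rise with suberin: of 13 root markers 2 rose and 10 fell as deposited, and 2 rose and 8 fell after scaling. CASP4, which helps to place the Casparian strip of the endodermis, was at 1.17, 0.80 and 0.41 TPM in bon123 ABA libraries and at 9.87, 7.99 and 10.8 TPM in bon123 mock libraries (-2.57 ± 0.25). SHR, which specifies the endodermis, was at 0.61, 0.60 and 0.44 TPM in bon123 ABA libraries and at 5.89, 6.58 and 7.32 TPM in bon123 mock libraries (-2.29 ± 0.15). The root hair genes EXPA7 and RHD6 were the 2 risers, the second only with ABA replicate 3.

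Cuticular wax genes act in the shoot epidermis. Of 12 tested genes, 4 rose and 6 fell as deposited, and 5 rose and 1 fell after scaling, so falls in this list depended on the scaling. CER1, which makes alkanes, was at 47.1, 48.1 and 36.8 TPM in bon123 ABA libraries and at 2.93, 2.72 and 2.06 TPM in bon123 mock libraries (3.65 ± 0.14, adjusted p = 5.4e-12). KCS1 and KCR1, which also serve other lipids, rose by 1.73 and 1.09. CER6, the condensing enzyme of the epidermis, was at 2.96, 2.62 and 2.58 TPM in bon123 ABA libraries and at 8.04, 5.61 and 5.01 TPM in bon123 mock libraries (-0.94 ± 0.19), and was not called after scaling (-0.39). CER2, CER4 and the wax ester gene WSD1 were under 1 TPM in all 6 bon123 libraries, and the fall of CER2 was called only with ABA replicate 3. Markers of stomata and their lineage, cells of the same layer, gave 0 rises and 2 falls among 8 genes, and 0 and 1 after scaling. Of these 8 genes, 5 were under 1 TPM in all 6 bon123 libraries, so the counts say little about them. MYB60 of guard cells was at 0.07, 0.14 and 0.57 TPM in bon123 ABA libraries and at 1.89, 3.09 and 2.53 TPM in bon123 mock libraries (-1.48 ± 0.23).

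Most aquaporin genes, which code for water channels, fell. In the plasma membrane groups, 4 of 5 PIP1 and 8 of 8 PIP2 genes fell as deposited and 3 and 7 after scaling, with medians of -1.15 and -2.45. PIP2;1 was at 240, 203 and 199 TPM in bon123 ABA libraries and at 1672, 1658 and 1637 TPM in bon123 mock libraries (-2.95 ± 0.09, adjusted p = 6.4e-13). PIP1;5 was at 9.44, 9.29 and 9.09 TPM in bon123 ABA libraries and at 86.0, 88.8 and 84.3 TPM in bon123 mock libraries (-3.09 ± 0.14, adjusted p = 1.9e-11). No ABA library came near a mock library for either gene. PIP2;3 fell by 3.79 on the log2 scale, but may share reads with its near-identical neighbour PIP2;2, which fell by 1.99. PIP1;4 was called in neither direction as deposited (0.02 ± 0.09) and higher after scaling (0.71). Of 7 tested TIP genes, for channels of the vacuole membrane, 6 fell and 1 rose under both scalings. The riser was TIP3;1, a seed vacuole channel, at 36.1, 43.9 and 15.9 TPM in bon123 ABA libraries and 1.45, 2.75 and 0.70 TPM in bon123 mock libraries (3.61 ± 0.38). Of 7 NIP and SIP genes, 0 rose and 6 fell as deposited, 1 rose and 4 fell after scaling, and 1 rose without ABA replicate 3. NIP5;1, a boron channel of roots, fell to 8.11, 6.51 and 7.31 TPM in bon123 ABA libraries, against 36.2, 36.3 and 39.1 TPM in bon123 mock libraries.

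Photosynthesis genes fell throughout, from levels that were already low in the mutant. All 29 photosystem and Rubisco genes fell as deposited and 26 of 29 after scaling, with a median of -1.82, and all 8 green shoot markers fell under both scalings. The photosystem and Rubisco genes summed to 1436, 1586 and 2060 TPM in bon123 ABA libraries and to 6119, 5618 and 5043 TPM in bon123 mock libraries, against 103100 to 108500 TPM in WT mock libraries. LHCB3, an antenna protein gene of photosystem II, was at 21.1, 20.8 and 26.8 TPM in bon123 ABA libraries and at 278, 238 and 199 TPM in bon123 mock libraries (-3.32 ± 0.13, adjusted p = 8e-12). RBCS1A was at 35.3, 35.5 and 49.9 TPM in bon123 ABA libraries, against the mock values given above (-3.11 ± 0.16, adjusted p = 1.2e-10). The 3 genes not called after scaling were LHCB4.3, PSBR and PSBW.

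Chlorophyll synthesis fell and chlorophyll breakdown rose. Of 13 synthesis genes, 11 fell and 1 rose as deposited, and 10 fell and 1 rose after scaling. CHLM, a magnesium protoporphyrin methyltransferase gene, was at 4.69, 3.74 and 4.22 TPM in bon123 ABA libraries and at 47.7, 48.6 and 44.8 TPM in bon123 mock libraries (-3.21 ± 0.10). CRD1, the cyclase gene of the next step (-3.10 ± 0.10), and CHLI1 of magnesium chelatase (-2.63 ± 0.14) fell as well. CAO, which makes chlorophyll b, was the riser (0.36 ± 0.13). Of 12 breakdown and senescence genes, 9 rose and 1 fell as deposited, and 11 rose and 0 fell after scaling. SAG29 (SWEET15), a sugar exporter gene of senescing leaves, was at 454, 515 and 420 TPM in bon123 ABA libraries and at 12.8, 15.6 and 11.4 TPM in bon123 mock libraries (5.03 ± 0.12, adjusted p = 4.2e-14). NYC1, a chlorophyll b reductase gene, was at 652, 665 and 435 TPM in bon123 ABA libraries and at 80.1, 87.6 and 85.8 TPM in bon123 mock libraries (2.75 ± 0.16). PAO, PPH and NYE1 of the same pathway rose by 2.45, 1.44 and 1.95. SAG12, the classical marker of late senescence, was at 0.67, 0.64 and 0.40 TPM in bon123 ABA libraries and listed at 0 in all 3 bon123 mock libraries.

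Of 12 tested genes of nitrate and ammonium use, 2 rose and 7 fell as deposited, and 3 rose and 5 fell after scaling, shares near those of all genes. AMT1;2, an ammonium transporter gene of root cells, was at 0.40, 0.12 and 0.28 TPM in bon123 ABA libraries and at 85.3, 106 and 119 TPM in bon123 mock libraries (-6.36 ± 0.17, adjusted p = 1.3e-13). The nitrate transporter gene NRT1.1 (1.14 ± 0.25) and the asparagine synthetase gene ASN1 (2.47 ± 0.24) rose. AMT1;1 varied between 1.18 and 31.3 TPM among the bon123 ABA libraries and was not called. Of 8 tested sulphate genes, 5 rose and 1 fell as deposited, and 6 rose and 1 fell after scaling. LSU2, a small protein gene of sulphur deficiency, was at 185, 193 and 277 TPM in bon123 ABA libraries and at 29.4, 33.1 and 33.9 TPM in bon123 mock libraries (2.70 ± 0.19). SDI1, which restrains glucosinolate synthesis under sulphur deficiency, was at 36.9, 33.0 and 30.4 TPM in bon123 ABA libraries and at 5.79, 3.42 and 4.63 TPM in bon123 mock libraries (2.63 ± 0.24). APR1, of the reductase step, rose by 1.59 ± 0.11. Of 7 tested iron and phosphate genes, 1 rose and 4 fell as deposited, and 2 rose and 2 fell after scaling, again near the shares of all genes. FIT, the master regulator of iron uptake in roots, fell to 2.13, 2.80 and 1.21 TPM in bon123 ABA libraries, against 42.4, 51.0 and 65.6 TPM in bon123 mock libraries (-4.16 ± 0.27, adjusted p = 1.1e-09).

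Of 13 tested genes of small heat shock proteins and their regulators, 9 rose and 1 fell as deposited, and 12 rose and 1 fell after scaling. HSP22.0, a chaperone gene of the endoplasmic reticulum, was at 96.0, 86.7 and 93.2 TPM in bon123 ABA libraries and at 0.84, 0.78 and 0.64 TPM in bon123 mock libraries (5.73 ± 0.23). HSP17.4 was at 947, 885 and 1362 TPM in bon123 ABA libraries and at 63.3, 63.4 and 60.2 TPM in bon123 mock libraries (4.05 ± 0.23). HSFA6A and HSFA6B, heat shock factors that respond to ABA, rose by 4.22 ± 0.32 and 2.77 ± 0.14, with mock levels of at most 0.43 TPM, and HSFA3 fell (-0.80 ± 0.13). Of 16 tested heat shock factors taken by a symbol that starts with HSF, 7 rose and 5 fell as deposited, and 11 rose and 3 fell after scaling. HSFB2A was at 66.3, 64.2 and 58.0 TPM in bon123 ABA libraries and at 9.63, 9.45 and 11.2 TPM in bon123 mock libraries (2.53 ± 0.10).

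Growth genes fell. Of 15 genes for expansins, xyloglucan enzymes and cellulose synthase, 12 fell and 1 rose as deposited and 11 fell and 2 rose after scaling. Of 13 tested genes of the mitotic cell cycle, 12 fell as deposited and 11 after scaling, with medians of -1.49 and -1.39 for the lists. EXPA4 was at 0.84, 1.06 and 0.56 TPM in bon123 ABA libraries and at 20.4, 16.1 and 21.3 TPM in bon123 mock libraries (-3.47 ± 0.17). CYCD3;1, a cyclin gene of cell cycle entry, was at 0.22, 0.22 and 0.07 TPM in bon123 ABA libraries and at 6.18, 6.19 and 5.37 TPM in bon123 mock libraries (-2.56 ± 0.15). No library of one treatment reached the range of the other for these genes. EXPA18, of root hairs, was the only riser as deposited (1.03 ± 0.44), and its call was lost without ABA replicate 3.

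Of 10 genes of salicylic acid and PR proteins, 7 fell as deposited and 4 after scaling, with 0 called higher. Of all genes 55.5% fell as deposited and 34.7% after scaling. The list median was -1.1 as deposited and -0.44 after scaling. PR5 was at 1.48, 3.54 and 4.58 TPM in bon123 ABA libraries and at 21.9, 17.2 and 12.2 TPM in bon123 mock libraries (-2.15 ± 0.30). SAG101, EDS1 and PAD4, which form immune complexes together, fell by 1.67, 1.34 and 1.29. PR1, the classical marker of salicylic acid, was at 1475, 2804 and 3496 TPM in bon123 ABA libraries and at 2470, 3055 and 2057 TPM in bon123 mock libraries. Its groups overlapped and it was not called (-0.03 ± 0.88).

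**Figure D4:**
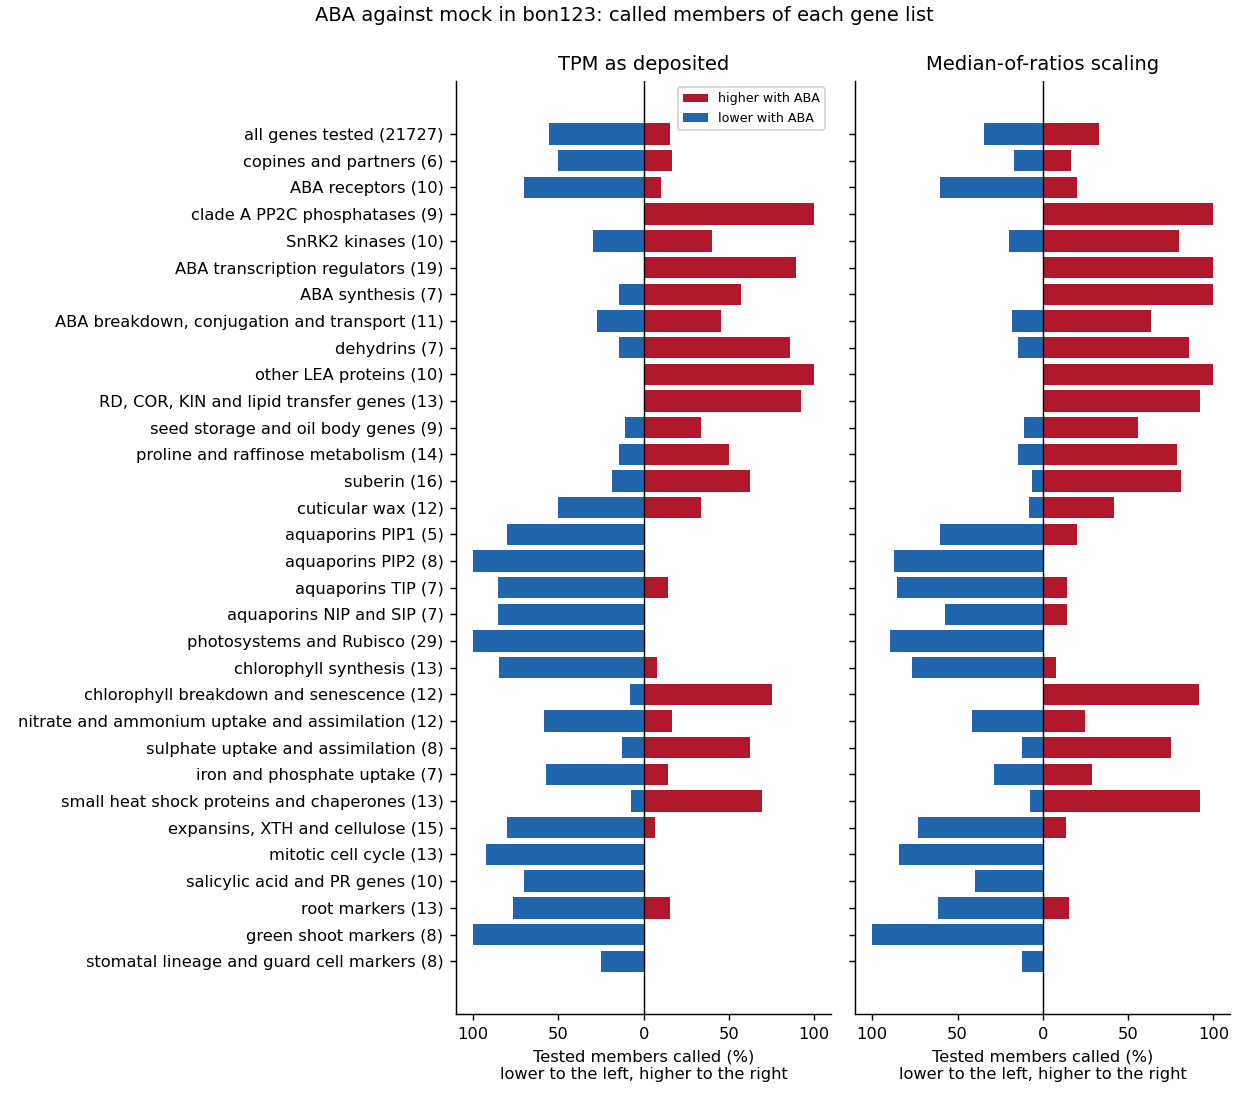
Share of tested members of each gene list called lower (left of 0) and higher (right of 0) with ABA in bon123, as deposited and after median-of-ratios scaling, with the number tested in brackets and all 21727 genes at the top. PP2C and other LEA genes are higher at 100% of tested members in both panels, while green shoot markers are lower at 100% in both, and the shares of wax, SnRK2 and nutrient lists move with the scaling.

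The 10 largest falls among the same 4400 genes included genes of the cell wall, of proteases and of cytokinin synthesis. EARLI1, which codes for a lipid transfer-like protein of the cell wall, was at 0.42, 0.51 and 4.93 TPM in bon123 ABA libraries and at 1448, 1188 and 1166 TPM in bon123 mock libraries (-9.08 ± 0.41, adjusted p = 2.5e-11). AIR1B of the same protein family was at 1.25, 2.18 and 0.13 TPM in bon123 ABA libraries and at 654, 665 and 431 TPM in bon123 mock libraries (-8.16 ± 0.44). The protease genes RDL5 and SBT4.12 fell by 6.95 and 6.03, and the inactive esterase gene GLL23 by 6.95. IPT3, an isopentenyltransferase gene of cytokinin synthesis, was at 0, 0.21 and 0.02 TPM in bon123 ABA libraries and at 75.6, 70.0 and 55.7 TPM in bon123 mock libraries (-5.98 ± 0.22). CYP735A2, the cytokinin hydroxylase gene that makes trans-zeatin forms, was at 0.32, 0.41 and 0.12 TPM in bon123 ABA libraries and at 124, 106 and 106 TPM in bon123 mock libraries (-6.46 ± 0.16, adjusted p = 6.3e-14). HK1 (AT2G17820), a histidine kinase gene linked with osmosensing, was at 1.22, 1.37 and 0.88 TPM in bon123 ABA libraries and at 145, 135 and 143 TPM in bon123 mock libraries (-6.05 ± 0.11). The remaining 2 were PYL6 and AMT1;2.

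Gene families were counted in the same way. Their counts are read against all genes, of which 15.1% rose and 55.5% fell as deposited, and 33% and 34.7% after scaling. Among sugar exporters with a SWEET symbol 4 of 10 tested genes rose and 5 fell, and 5 and 4 after scaling. SAG29 (SWEET15), which rose, is given above with senescence and was not counted here. SWEET4 was at 37.9, 39.3 and 42.5 TPM in bon123 ABA libraries and at 0.10, 0.04 and 0.06 TPM in bon123 mock libraries (5.26 ± 0.12), whereas SWEET11, of phloem loading, was at 17.8, 18.1 and 22.6 TPM in bon123 ABA libraries and at 118, 140 and 121 TPM in bon123 mock libraries (-2.64 ± 0.13). SWEET16, of the vacuole membrane, fell by 3.60. WRKY factors gave 15 rises and 27 falls among 61 tested genes, and 24 and 16 after scaling. WRKY43 rose by 3.75 ± 0.25 and WRKY28 by 3.06 ± 0.17, and WRKY72 fell by 2.92. NAC factors taken by symbol gave 21 rises and 20 falls among 56, and 30 and 9 after scaling. Among them NAC074 (2.37) and NAC100 (2.30) came behind NAC019. RD26, given above, has another kind of symbol and was not counted. Of 32 tested cysteine-rich receptor-like kinases 1 rose and 14 fell, and 3 and 11 after scaling. Of these 32 genes, 12 were under 1 TPM in all 6 bon123 libraries. The falls were led by CRK29, at 4.30, 2.60 and 1.57 TPM in bon123 ABA libraries and 61.5, 61.4 and 67.3 TPM in bon123 mock libraries. CRK28 lies beside CRK29 and is close in sequence, so their single values are uncertain.

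Copines bind calcium, and calcium transport genes were listed for that reason. Of 9 tested autoinhibited calcium pumps 7 fell as deposited, and 1 rose and 4 fell after scaling. Without ABA replicate 3, 1 rose and 5 fell. ACA4, a pump of the vacuole membrane, was at 4.66, 3.48 and 2.23 TPM in bon123 ABA libraries and at 20.2, 18.4 and 18.5 TPM in bon123 mock libraries (-2.21 ± 0.16). Of 14 tested cyclic nucleotide-gated channels 2 rose and 8 fell, and 4 and 4 after scaling. CNGC12 was at 8.17, 7.21 and 5.03 TPM in bon123 ABA libraries and at 33.5, 33.3 and 35.3 TPM in bon123 mock libraries (-2.19 ± 0.13). The shares of falls in these families are read against the 55.5% of all genes.

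Further families are likewise read against the shares of all genes given above. Tau glutathione S-transferases gave 8 rises and 14 falls among 26 tested genes, and 11 of each after scaling, with GSTU3 at 846, 1005 and 1102 TPM in bon123 ABA libraries and 109.7, 141.4 and 122.5 TPM in bon123 mock libraries (2.97 ± 0.23). UMAMIT amino acid exporters gave 11 rises and 18 falls among 35, and 15 and 13 after scaling, with UMAMIT10 rising by 3.17 ± 0.20 and UMAMIT13 falling by 2.40. SAUR genes of the auxin response were low in bon123: 16 of 26 tested genes were under 1 TPM in all 6 bon123 libraries. As deposited 3 rose and 6 fell, and after scaling 5 rose and 3 fell. SAUR76 was at 0.71, 0.92 and 1.11 TPM in bon123 ABA libraries and at 31.9, 29.5 and 27.3 TPM in bon123 mock libraries (-4.00 ± 0.13).

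The last question was where the ABA response of bon123 differed from that of WT, tested as the interaction, that is the log2 fold change of bon123 minus that of WT. It was positive for 2067 genes (9.51%) and negative for 9353 (43%), with a median of -0.44. After scaling it was positive for 5083 (23.4%) and negative for 4704 (21.7%), and 2053 and 4703 genes kept their call in both scalings. In WT itself ABA raised 4116 genes (18.9%) and lowered 6643 (30.6%) as deposited. After scaling it raised 4921 and lowered 6045 of the 21727 genes in WT. Green shoot markers differed between the genotypes in both treatments, as given above. The root marker sum, nearly all PYK10 in bon123, was higher in bon123 with mock and overlapped WT with ABA. With mannitol that sum was 11350, 15400 and 12760 TPM in bon123 and 2123, 2603 and 1667 TPM in WT. Of 13 root markers, 6 lay above and 2 below WT in every library with mock, and 3 above and 2 below with ABA. The matching shares of all genes were not counted, so these counts are not read as particular to the markers. The part of these marker differences in the interactions was not tested.

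Suberin genes responded more strongly in bon123. The interaction was positive for 11 and negative for 1 of 16 genes, and for 12 and 0 after scaling. MYB41 was at 13.5, 10.5 and 9.64 TPM in WT ABA libraries and at 3.37, 3.12 and 4.46 TPM in WT mock libraries, a response of 5.37 in bon123 and 1.39 in WT (interaction 3.98 ± 0.37, adjusted p = 3.8e-07). ABCG6 was at 50.9, 33.4 and 30.8 TPM in WT ABA libraries and at 14.0, 22.1 and 22.2 TPM in WT mock libraries, a response of 4.57 in bon123 and 0.94 in WT (interaction 3.63 ± 0.50). GPAT5 and ASFT had interactions of 2.70 ± 0.42 and 2.62 ± 0.40. For these 4 genes the ABA levels in bon123 exceeded those in WT in every library.

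Cuticular wax genes responded less in bon123. In WT 11 of 12 rose and 0 fell, and the interaction was negative for 9 genes as deposited and for 8 after scaling, with 0 and 3 positive. CER6 was at 931, 742 and 829 TPM in WT ABA libraries and at 218, 282 and 306 TPM in WT mock libraries, a response of -0.94 in bon123 and 1.64 in WT (interaction -2.57 ± 0.26, adjusted p = 1.1e-06). WSD1 was at 26.8, 30.4 and 30.1 TPM in WT ABA libraries and at 4.30, 4.73 and 2.71 TPM in WT mock libraries, and was not above 0.15 TPM in any bon123 library. For WSD1, CER2 and CER4 the interaction thus compares a response in WT with a gene under 1 TPM in the mutant. CER1 had a response of 3.65 in bon123 and 3.49 in WT, with a difference of 0.17 ± 0.20 that was not called as deposited and was positive after scaling.

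Plasma membrane aquaporins fell in bon123, whereas in WT 3 of 5 PIP1 and 2 of 8 PIP2 genes rose and 1 PIP2 gene fell as deposited. After scaling in WT, 3 PIP1 and 4 PIP2 genes rose and 0 of either group fell. Of all 21727 genes, 4921 rose and 6045 fell in WT after scaling. The interaction was negative for 5 of 5 PIP1 and 7 of 8 PIP2 genes as deposited and for 4 and 7 after scaling. PIP2;1 was at 1845, 1930 and 1829 TPM in WT ABA libraries and at 1581, 1844 and 1695 TPM in WT mock libraries, so that its mock levels were close in the 2 genotypes and its ABA levels were far apart (interaction -3.08 ± 0.13, adjusted p = 2.3e-10). PIP1;3 was at 358, 418 and 353 TPM in WT ABA libraries and at 249, 312 and 270 TPM in WT mock libraries (interaction -2.81 ± 0.16, adjusted p = 2.5e-09). For both genes the mock ranges of the genotypes overlapped.

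Sulphate genes moved in opposite directions. In bon123 5 of 8 tested genes rose and 1 fell, whereas in WT 7 fell and 0 rose, and the interaction was positive for 6 genes under both scalings. LSU2 was at 46.8, 43.9 and 30.1 TPM in WT ABA libraries and at 93.7, 98.8 and 95.7 TPM in WT mock libraries (interaction 3.96 ± 0.27, adjusted p = 2e-08). SDI1 was at 12.6, 7.18 and 7.51 TPM in WT ABA libraries and at 48.4, 49.0 and 63.5 TPM in WT mock libraries (interaction 5.10 ± 0.34, adjusted p = 1.7e-08). APR1 was at 108, 102 and 101 TPM in WT ABA libraries and at 193, 173 and 185 TPM in WT mock libraries (interaction 2.41 ± 0.16, adjusted p = 1.6e-08). For all 3 genes the mock level was lower in bon123 than in WT and the ABA level was higher.

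**Figure D5:**
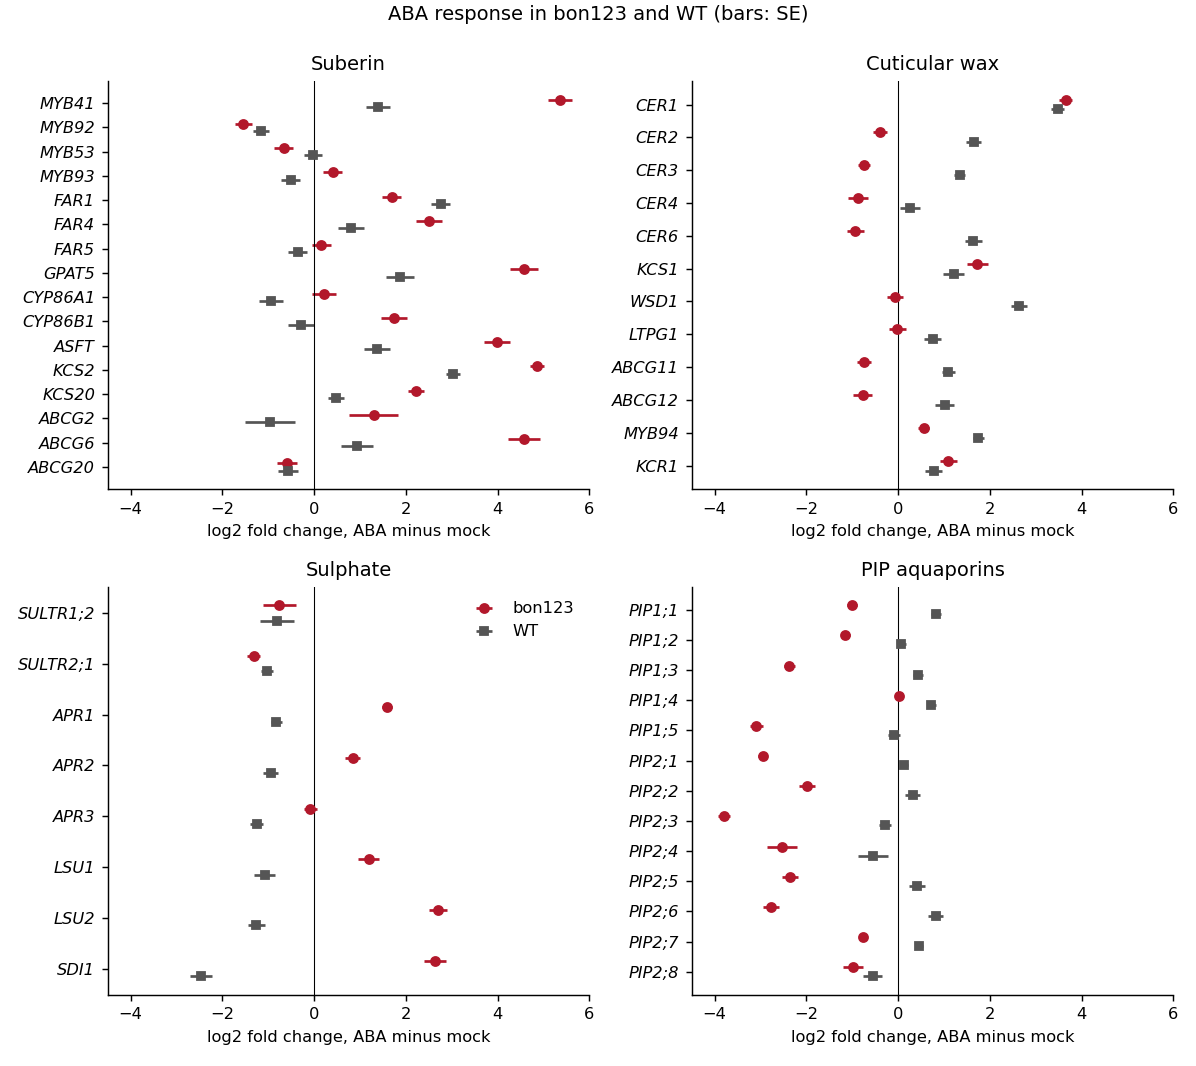
Log2 fold change (ABA minus mock) with standard error in bon123 and in WT for genes of suberin, cuticular wax, sulphate use and PIP aquaporins, as deposited. Suberin points of bon123 lie mostly right of WT, wax and PIP points mostly left, and 5 of 8 sulphate genes are right of 0 in bon123 with all 8 left of 0 in WT.

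Within the ABA pathway the phosphatase genes were alike in direction. All 9 PP2C genes rose in both genotypes, and the interaction was positive for 5 as deposited and 7 after scaling. HAI3 was at 107, 92.6 and 78.6 TPM in WT ABA libraries and at 0.53, 0.55 and 0.95 TPM in WT mock libraries (interaction 2.80 ± 0.28). ABI1, HAB1 and HAI1 had interactions of -0.16, -0.32 and -0.26 that were not called. RAB18 was at 2860, 2414 and 3069 TPM in WT ABA libraries and at 38.6, 77.0 and 46.6 TPM in WT mock libraries, with a mock level lower in bon123 and an ABA level higher there (interaction 3.44 ± 0.31, adjusted p = 3.3e-07). EM6 had higher levels in bon123 in both treatments, at 182, 116 and 131 TPM in WT ABA libraries and 1.16, 1.91 and 1.13 TPM in WT mock libraries (interaction 2.54 ± 0.27). Among the synthesis genes NCED2 was at or below 0.36 TPM in WT and not called there (interaction 3.88 ± 0.28), and CYP707A4 rose in WT to 12.2, 15.4 and 12.2 TPM in ABA libraries, against 1.71, 2.86 and 2.17 TPM in mock libraries (interaction -3.93 ± 0.23). ABF4 rose in WT (1.69) and had an interaction of -1.77 ± 0.23 that held after scaling.

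Of the 13 small heat shock genes, 7 had a negative and 1 a positive interaction as deposited, and 6 and 2 after scaling, against 43% of all genes negative as deposited and 21.7% after scaling. HSP17.4 was at 351, 413 and 278 TPM in WT ABA libraries and at 2.04, 3.07 and 5.74 TPM in WT mock libraries (interaction -2.25 ± 0.33). Both its mock and its ABA levels were higher in bon123. HSP18.2 was at 199, 313 and 160 TPM in WT ABA libraries and at 6.85, 8.91 and 6.95 TPM in WT mock libraries (interaction -3.30 ± 0.33). SAG13, a senescence and defence gene, was at 376, 252 and 247 TPM in WT ABA libraries and at 30.0, 17.3 and 22.9 TPM in WT mock libraries. It stood at 889, 1143 and 1076 TPM in bon123 ABA libraries and at 801, 1050 and 874 TPM in bon123 mock libraries, so it was high in the mutant without the hormone (interaction -3.40 ± 0.28, adjusted p = 1.2e-07). Of the 16 positive interactions among SAUR genes, 15 were of genes under 1 TPM in all 6 bon123 libraries, so that WT falls are set there against genes with little transcript in the mutant.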

How the data were processed

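RNA of material labelled seedlings was sequenced by the submitters on a HiSeq 2500 after Trizol extraction, per the labels' protocols. The authors deposited 1 table of TPM values, 1 column per library, and per the submitters' processing notes the build was TAIR10 and the tools included RSEM 1.3.1, HISAT2 2.1.0 and DESeq2 1.24.0, with no role stated for any. TPM keeps no read depth, so precision rests on the spread between 3 libraries per group. The table lists 33082 loci, of which 5905 are at 0 in every library.

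A pseudocount of 1 was added before the log2 step. Of all loci, 21727 reached 1 TPM in 3 or more of the 18 libraries and were tested. The model, from limma 3.58.1 under R 4.3.3, held 6 group means and a trend on mean level. Tests were two-sided, adjusted by Benjamini-Hochberg over all tested genes and called at an adjusted p under 0.05. Fold changes on this scale understate changes of weakly expressed genes. Median-of-ratios scaling divides each library by the median ratio of its genes to their geometric means. Other alternatives were a pseudocount of 0.1, no filter, no organelle or ribosomal RNA genes, fits with fewer groups, a replicate block and leaving out each library. Scaling together with leaving out bon123 ABA replicate 3 was chosen after seeing the data.

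The members, gene lists and families were chosen with earlier results of these data known. Families were taken by symbol together with a protein domain in the deposited annotation, so relatives with another kind of symbol are left out. Named genes are the copines and their partners, members of lists (every library given for at most 4, those with the largest called change and no overlap), the 10 largest rises and falls and the 6 largest interactions of each sign, ranked among called genes that have a symbol, average at least 2 on the log2(TPM + 1) scale and keep the same call in both scalings (for rises and falls also no overlap between groups). Gene lengths came with the deposited TPM values. Names came from RefSeq (TAIR10.1), or from the deposited names where RefSeq gave none. Promoter sequences came from RefSeq, in which 32547 loci were found.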

Additional observations from a re-analysis of the deposited data

Results flagged for a closer look

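The ABA response differed between bon123 and WT, by the interaction in limma, at 2067 genes with a positive and 9353 with a negative interaction as deposited. Among called genes that have a symbol, average at least 2 on the log2(TPM + 1) scale and keep the same call in both scalings, the 6 largest of each sign are given here as log2 interaction ± SE. The differences in green shoot and root markers between the genotypes, as given above, apply to all of them.

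UGT89B1, a flavonol glucosyltransferase gene, had an interaction of 7.32 ± 0.65. It was at 204 to 318 TPM in bon123 ABA libraries, at 3.36 TPM in 1 WT ABA library and listed at 0 in all mock libraries and the other 2 WT ABA libraries. With these values at 0, the size of its interaction depends on the pseudocount of 1. SWEET13 (5.41 ± 0.29) was at 19.1, 31.9 and 22.5 TPM in WT ABA libraries and at 7.86, 5.17 and 7.20 TPM in WT mock libraries, so its mock level was lower in bon123 and its ABA level higher. PER1 (5.37 ± 0.51) and RD19D, a cysteine protease gene (4.86 ± 0.34), stayed at or below 0.31 TPM in WT. RD19D was at 117, 113 and 65.4 TPM in bon123 ABA libraries and at 1.5 to 2.54 TPM in bon123 mock libraries. SDI1 (5.10 ± 0.34) fell in WT. SULTR3;1, a sulphate transporter gene of chloroplasts (4.39 ± 0.21), was at 113, 102 and 95.8 TPM in bon123 ABA libraries and at 2.42, 1.58 and 1.49 TPM in bon123 mock libraries, against 40.1, 45.3 and 41.6 TPM in WT ABA libraries and 23.7, 25.9 and 20.6 TPM in WT mock libraries.

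Among the negative interactions, GLL23 (-6.54 ± 0.31) was at 47.3 to 64.0 TPM in WT ABA libraries and at 67.7 to 82.0 TPM in WT mock libraries. HIPP24, a heavy metal-associated protein gene (-6.27 ± 0.16), moved in opposite directions: it was at 0.07, 0.07 and 0 TPM in bon123 ABA libraries and at 7.75, 7.04 and 7.06 TPM in bon123 mock libraries, against 73.8, 85.7 and 87.0 TPM in WT ABA libraries and 6.92, 8.2 and 7.41 TPM in WT mock libraries. GA3OX1, a gibberellin oxidase gene (-4.92 ± 0.18), likewise fell to 0.86 to 1.06 TPM in bon123 ABA libraries, against 24.0 to 26.8 TPM in bon123 mock libraries, and rose in WT to 31.2 to 40.0 TPM in ABA libraries. CYP735A2 (-5.08 ± 0.23) fell in WT too, where it was called lower (-1.38 ± 0.16). It was at 0.07, 0.04 and 0.03 TPM in WT ABA libraries and at 1.59, 1.66 and 1.93 TPM in WT mock libraries. At such low levels the pseudocount of 1 shrinks the WT fold change, which enlarges the interaction. FBA2, a chloroplast aldolase gene (-4.82 ± 0.18), was at 2.49, 2.81 and 3.49 TPM in bon123 ABA libraries and at 193, 181 and 158 TPM in bon123 mock libraries, against 1722 to 2160 TPM in WT ABA libraries and 2918 to 3267 TPM in WT mock libraries. AMT1;2 (-4.82 ± 0.24) was at 34.6 to 35.7 TPM in WT ABA libraries and at 100.0 to 110.9 TPM in WT mock libraries, close to its mock level in bon123.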

How the results depend on the processing

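Scaling was the choice that moved counts by more than 1.5 times. With median-of-ratios scaling 7176 genes were higher and 7548 lower with ABA in bon123, and 7564 and 7595 when bon123 ABA replicate 3 was also left out, against 3288 and 12053 as deposited. The interaction then had 5083 positive and 4704 negative calls, and 5842 and 5268 without that library, against 2067 and 9353. Scaling turned the uncalled changes of BON1 (0.20) and BAP1 (0.49, and 0.36 without ABA replicate 3) positive; the cause was not tested. Leaving out 1 library at a time gave 2996 to 3804 higher and 11329 to 12450 lower genes, and 1797 to 2500 positive and 8602 to 10270 negative interactions. Same-numbered bon123 libraries did not deviate together (correlations -0.15, 0.14 and -0.24), and a replicate block gave 3250 higher and 11875 lower genes and 2007 and 9047 interactions. The pseudocount, filter and smaller fits kept all 4 counts within 1.5 times. BAP2 was not called without ABA replicate 3 (0.69) or mock replicate 3 (0.70). Unknown depth leaves changes of genes near 1 TPM poorly resolved.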
